A study of Mus musculus with 6 samples.

Results

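The complement genes described here were 9 mouse genes chosen by name: the C1q chain genes C1qa, C1qb and C1qc, the cleaved components C3 and C4b, the alternative pathway genes Cfb and Cfp, and the anaphylatoxin receptor genes C3ar1 and C5ar1. They were found by symbol among the 27263 genes listed in the files, and all 9 were present. The rule that names them uses no measured value, although it was written with earlier results of these data known. RNA sequencing was done on primary bone marrow stromal cells of C57BL/6 mice, the adherent marrow cells that can form bone and fat. The GCA group held 3 libraries from cells given rGCA at 50 nM for 3 days, and the PBS group held 3 libraries from cells given PBS, the buffer in place of the protein. The labels do not spell GCA out; it is read here, from what is known of the study, as grancalcin, a protein of neutrophils and macrophages that binds calcium, and rGCA as recombinant grancalcin. Cells of both groups came from tibiae and femurs, were sorted for Sca-1 and CD29 and against CD45 and CD11b, and grew in serum-containing medium. The labels give neither age nor sex of the mice. They also do not say if the replicates of a group were separate mice or dishes. The p-values therefore measure the spread between these libraries alone, which may be technical.

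Complement is a cascade of secreted proteins that marks particles for uptake, draws in white cells and can pierce membranes. In the classical pathway C1q binds antibody or dying cells and, through the proteases C1r and C1s, cleaves C4 and C2. The lectin pathway reaches the same step from sugars, and the alternative pathway amplifies C3 cleavage through factor B, factor D and properdin. The small fragments C3a and C5a then act on receptors of myeloid cells. Liver cells make most circulating complement, whereas C1q and properdin come largely from macrophages and other myeloid cells.

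The unit of the deposited values is not named. They are read here as FPKM: a gene's fragments divided by its exon length and by a library total. The totals of the 6 libraries, fitted to the deposited values, ran from 17543509 to 18645932 fragments, a 1.06-fold range. The test of each gene was limma on log2(FPKM + 1) with Benjamini-Hochberg adjustment over the 11984 genes whose mean reached 1 FPKM, at a threshold of 0.05. Every log2 change below is GCA minus PBS on that scale, which understates changes of low genes. Over all tested genes 17.9% passed, 11.5% as higher and 6.43% as lower with GCA. Higher genes were 64.2% of these calls, against 54.1% after quantile normalization.

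Although the sort was against CD45 and CD11b, 14 of 14 macrophage markers had a mean over 1 FPKM, and their summed level was 12644 to 14086 FPKM in the GCA libraries and 16573 to 18454 FPKM in the PBS libraries. Lyz2, which encodes lysozyme, carried most of this sum and fell to 8879 FPKM with GCA, against 13518 FPKM with PBS (limma adjusted p = 0.00241). Without it the other 13 markers summed to 4395 to 4578 FPKM in GCA libraries and 3948 to 4273 FPKM in PBS libraries, the opposite direction. Among all 14 markers, 4 rose, 1 fell and 9 did not pass. Summed stromal markers stood at 3448 to 3706 FPKM in GCA libraries and 3968 to 4194 FPKM in PBS libraries, with 0 of 13 tested higher and 4 lower. The macrophage and stromal counts stand beside 11.5% higher and 6.43% lower over all tested genes. Neutrophil markers summed to 9.47 to 15.4 FPKM with GCA and 12.3 to 17.1 FPKM with PBS, and 0 of 3 tested passed. Dendritic, B cell and T cell markers were all under the tested minimum, and 1 of 6 endothelial markers was tested and did not pass. In these bulk samples, fewer cells of a type and less RNA per cell cannot be told apart. The part that cell makeup had in the changes below was not tested.

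Of the 9 complement genes, 8 reached the tested minimum and Cfb did not. C1qa, C1qb, C1qc and C4b rose with GCA, C3ar1 fell, and C3, Cfp and C5ar1 did not pass. Leaving out GCA replicate 1, GCA replicate 3 or PBS replicate 2 left 3 of them past the threshold, and leaving out GCA replicate 2 gave 7. In the first 3 of these fits 1361, 1521 and 1307 of all tested genes passed, and 2078 in the last. With all 6 libraries 2151 passed. The 4 of 8 that rose stand beside 11.5% of all tested genes, and the 1 of 8 that fell beside 6.43%. Their median log2 change was 0.37, against 0.01 over all tested genes. The C1q chain genes lie side by side, so they are not 3 independent observations. All 3 GCA libraries were above all 3 PBS libraries for 5 of the 8 tested genes, and all below for 1. These stand beside 21.6% above and 16.8% below over all tested genes, so the 1 below is no larger a share.

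**Figure D1:**
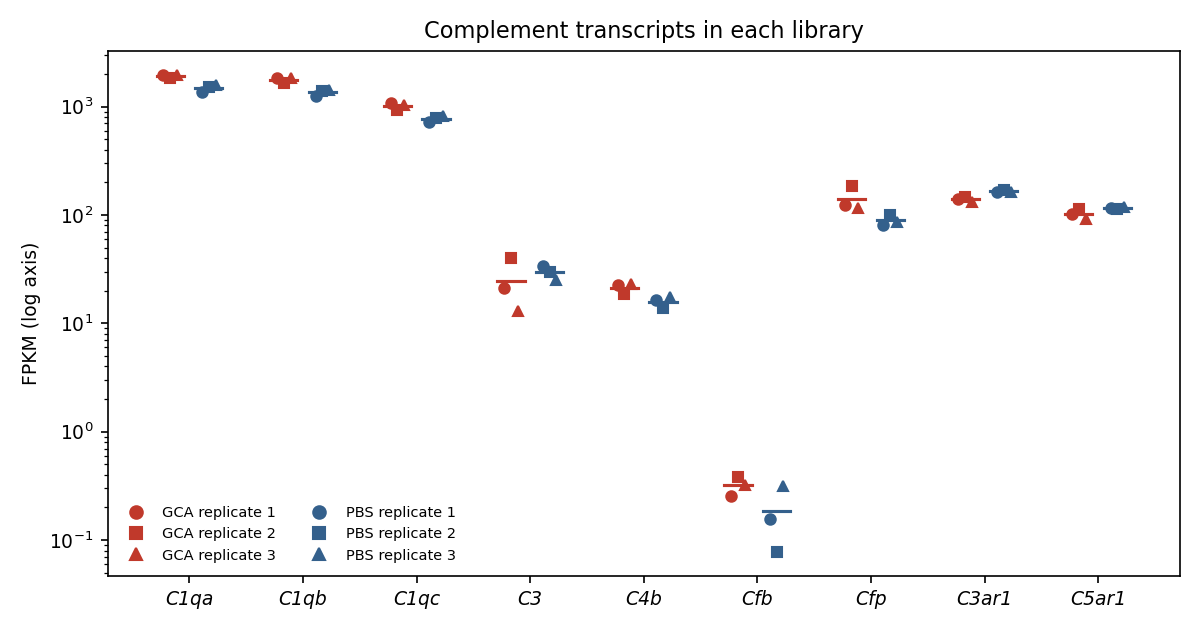
FPKM on a log axis of each complement gene in the 3 GCA libraries (red, left) and the 3 PBS libraries (blue, right), 1 symbol a library, with a line at each group mean. The C1q chain genes, C4b and Cfp have all GCA symbols above all PBS symbols, C3ar1 has them below, and C3, C5ar1 and Cfb overlap.

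Promoter sequences of 6 of the 9 genes were found in RefSeq, build GRCm38.p6, as 250 bases before and 50 after the transcript start. The promoters of C1qb and C1qc are shown because both genes rose together, and that of C3 because its libraries were ordered differently. Capitals mark the letters matched by a searched motif. All 3 lie on the minus strand and are written 5′ to 3′ along it.
C1qb, chr4:136886151-136886450: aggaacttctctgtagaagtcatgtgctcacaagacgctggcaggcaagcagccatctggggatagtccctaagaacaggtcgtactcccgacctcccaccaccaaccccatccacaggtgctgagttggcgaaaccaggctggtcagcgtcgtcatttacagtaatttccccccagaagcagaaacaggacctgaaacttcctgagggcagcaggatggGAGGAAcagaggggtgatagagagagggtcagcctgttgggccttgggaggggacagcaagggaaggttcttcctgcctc
C1qc, chr4:136892865-136893164: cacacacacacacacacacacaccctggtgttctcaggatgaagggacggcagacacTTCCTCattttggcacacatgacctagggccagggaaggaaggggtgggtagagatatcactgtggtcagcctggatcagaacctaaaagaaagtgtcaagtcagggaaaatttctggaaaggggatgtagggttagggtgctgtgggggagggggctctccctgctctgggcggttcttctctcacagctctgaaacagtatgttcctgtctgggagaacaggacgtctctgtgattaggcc
C3, chr17:57228087-57228386: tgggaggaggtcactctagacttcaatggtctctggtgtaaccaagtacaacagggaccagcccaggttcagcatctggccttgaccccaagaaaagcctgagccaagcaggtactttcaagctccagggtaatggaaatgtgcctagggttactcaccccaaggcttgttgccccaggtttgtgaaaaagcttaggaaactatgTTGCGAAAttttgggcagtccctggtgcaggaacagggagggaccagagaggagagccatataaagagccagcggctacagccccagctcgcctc

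The motifs below were searched on both strands. The PU.1 core, GAGGAA, was in 3 of the 6 promoters, C1qb, C1qc and Cfp, and in 28.3% of all 32851 RefSeq promoters. In C1qc and Cfp it was read from the other strand. It began at base -30 in C1qb and at base -193 in C1qc, counted from the start site. The C/EBP letters TTGCNNAA were in the C3 promoter alone, at base -45, and in 10.8% of all promoters. The MAF letters TGCTGAC were in 0 of the 6 and in 4.67% of all promoters. An interferon response motif and an NF-kB motif were also in 0 of the 6, and in 3.44% and 1.47% of all promoters. A match describes letters in a window and is no evidence of binding. The RefSeq start of C1qc lies inside the gene as GENCODE M21 draws it.

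C1qa, C1qb and C1qc encode the A, B and C chains of C1q, the recognition subunit of the classical pathway. They lie on chromosome 4 on the minus strand (GENCODE M21, GRCm38), in 18.7 kb from 136880129 to 136898803, in the order C1qb, C1qc, C1qa. Their levels were among the highest in the cells: of 16825 protein-coding genes, C1qa ranked 11 in every GCA library, against 13 to 15 in the PBS libraries. C1qb ranked 13 to 16 with GCA and 15 to 16 with PBS, and C1qc 24 to 26 with GCA and 32 to 34 with PBS.

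C1qa (ENSMUSG00000036887) had 1948, 1843 and 1972 FPKM in the GCA libraries, against 1360, 1517 and 1586 FPKM in the PBS libraries. All GCA libraries were higher than all PBS libraries. The level averaged 1921 ± 68.5 FPKM with GCA and 1488 ± 115.4 FPKM with PBS (SD, n = 3 each), a log2 change of 0.37 (SE 0.067, limma adjusted p = 0.00839).

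C1qb (ENSMUSG00000036905) had 1818, 1665 and 1816 FPKM with GCA, against 1264, 1390 and 1432 FPKM with PBS. Its groups stood apart in the same way. The log2 change was 0.38 (SE 0.065, limma adjusted p = 0.00715), and it was 0.08 after quantile normalization (limma adjusted p = 0.369) but 0.36 after median centring (limma adjusted p = 0.0101). C1qc (ENSMUSG00000036896) had 1077, 939 and 1025 FPKM with GCA, against 721, 790 and 815 FPKM with PBS. Again no library of either group crossed into the other, and the log2 change was 0.39 (SE 0.069, limma adjusted p = 0.00837).

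The 3 genes moved in near-constant proportion. C1qa made up 40.2, 41.4 and 41.0% of their summed FPKM in GCA libraries, against 40.7, 41.0 and 41.4% in PBS libraries (two-sided exact permutation p = 0.80). For C1qb and C1qc the exact p-values were 1.0 and 0.90, and 0.10 is the smallest that 3 against 3 libraries can give. In fragments, C1qa had 36177, 33631 and 38242 with GCA, against 25789, 28638 and 29399 with PBS. C1qb over C1qa lay between 0.945 and 0.976 in all 6 libraries, and C1qc over C1qa between 0.945 and 1.03. The exon union of C1qc, 1931 bases, is 1.61 times its longest transcript, and per length of that transcript C1qc averaged 1627 FPKM with GCA and 1245 FPKM with PBS. Together they took 1.35, 1.20 and 1.42% of all FPKM with GCA, against 0.972, 1.06 and 1.03% with PBS.

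**Figure D2:**
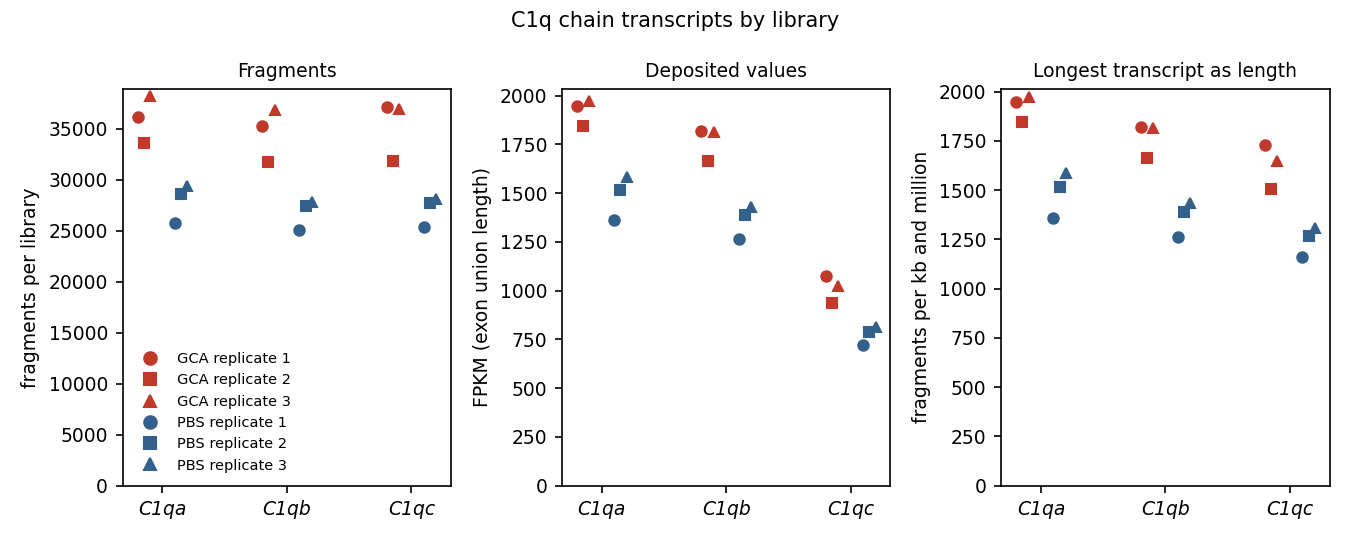
C1qa, C1qb and C1qc in each GCA (red) and PBS (blue) library, as fragments per library (left), deposited FPKM over the exon union (middle) and fragments scaled by the longest transcript and the library total (right). Fragment numbers are alike for the 3 genes within a library, C1qc is lower in the middle panel, and the GCA symbols lie above the PBS symbols in every panel.

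The genes beside the cluster were low. Ephb2 averaged 0.646 FPKM with GCA and 0.855 FPKM with PBS, and Zbtb40 averaged 1.28 FPKM with GCA and 1.80 FPKM with PBS (log2 change -0.29, limma adjusted p = 0.0381). Set against macrophage markers, C1qa gave no single direction. C1qa over Csf1r, the receptor of the macrophage growth factor, was 11.8, 12.0 and 12.3 in GCA libraries, against 8.87, 9.79 and 10.6 in PBS libraries. C1qa over Cd68, a lysosomal protein of macrophages, was 1.89, 2.23 and 2.02 in GCA libraries, against 2.26, 2.42 and 2.58 in PBS libraries. Of 14 macrophage markers taken in turn, the ratio was above in all GCA libraries for 8, below for 2 and overlapping for 4. As C1qa was itself above in all GCA libraries, this count adds no separate evidence.

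C1q acts through the proteases C1r and C1s. C1s1, which encodes C1s, fell to 6.90 ± 0.581 FPKM in GCA libraries, against 10.4 ± 1.42 FPKM in PBS libraries (SD, n = 3 each), a log2 change of -0.52 (limma adjusted p = 0.0105). C1ra, which encodes C1r, had 17.4 FPKM with GCA and 16.9 FPKM with PBS (log2 change 0.04, limma adjusted p = 0.736). C1s1 over C1ra was 0.398, 0.402 and 0.391 with GCA, against 0.672, 0.637 and 0.534 with PBS. These groups did not overlap, with an exact permutation p of 0.10, the smallest possible, and 0.20 after adjustment over 8 ratios and shares. As C1s1 was itself below in all GCA libraries, this ratio adds no separate evidence. Both have near copies: C1ra and C1rb transcripts share 97.9% of 2431 aligned bases and C1s1 and C1s2 95.9% of 2643, so reads could be split between them, and the labels do not say how such reads were assigned. As deposited, C1rb averaged 0.0612 FPKM with GCA and 0.091 FPKM with PBS, and C1s2 averaged 0.0831 FPKM with GCA and 0.18 FPKM with PBS.

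C4b (ENSMUSG00000073418), at chromosome 17 bases 34728380 to 34743882 on the minus strand, encodes C4, which C1s and the lectin proteases cleave. It had 22.5, 18.5 and 23.1 FPKM with GCA, against 16.3, 13.8 and 17.5 FPKM with PBS. All GCA libraries were above all PBS libraries, and the log2 change was 0.41 (SE 0.107, 95% interval 0.16 to 0.66, limma adjusted p = 0.0379). The call was lost without GCA replicate 1 (adjusted p = 0.119), GCA replicate 3 (0.108), PBS replicate 1 (0.0894) or PBS replicate 2 (0.0936), all from limma. C4a, whose transcript matches C4b at 95.9% of 5378 bases with an exact run of 433, averaged 0.158 FPKM with GCA and 0.11 FPKM with PBS, so shared reads may be misassigned between them. C4b over Col1a2, a collagen gene of stromal cells, was 0.0473, 0.0387 and 0.0472 with GCA, against 0.0258, 0.0248 and 0.0324 with PBS, and Col1a2 itself fell (log2 change -0.26, limma adjusted p = 0.0289). Over Dcn, another stromal marker, C4b was 3.55, 3.75 and 4.40 with GCA, against 3.13, 2.41 and 3.89 with PBS, and the groups overlapped. Of 13 tested stromal markers the ratio was above in all GCA libraries for 10, below for 0 and overlapping for 3. Since C4b itself was higher and 0 of these markers rose, that count is no separate evidence.

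C3 (ENSMUSG00000024164), at chromosome 17 bases 57203970 to 57228136 on the minus strand, encodes the protein on which all 3 pathways converge. It had 21.04, 40.1 and 13.1 FPKM with GCA, against 33.8, 29.8 and 25.2 FPKM with PBS. GCA replicate 2 was the highest of the 6 libraries and the other 2 GCA libraries were the lowest, so the groups overlapped. The log2 change was -0.38 with a 95% interval of -1.36 to 0.61 (limma adjusted p = 0.557), and over the 6 fits without a library it ran from -0.79 without GCA replicate 2 (limma adjusted p = 0.112) to -0.01 without GCA replicate 3 (limma adjusted p = 0.98).

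Some other genes put GCA replicate 2 on the same side. Lcn2, an acute phase gene, had 10.8, 141 and 7.77 FPKM with GCA, against 35.9, 44.0 and 32.1 FPKM with PBS. Saa3, another acute phase gene, had 1834, 4061 and 1446 FPKM with GCA, against 2190, 2613 and 2163 FPKM with PBS. Both were highest in GCA replicate 2 and lowest in GCA replicates 1 and 3. Not all genes of the NF-kB and acute phase response had this order. Ccl2 had 164, 124 and 104 FPKM with GCA, against 172, 157 and 129 FPKM with PBS. For Nfkbia the values were 110, 96.2 and 78.0 FPKM with GCA, against 103, 99.6 and 96.0 FPKM with PBS. Over the tested genes GCA replicate 2 also stood apart in its group. The mean chi-square per gene, from the fragments of each pair of libraries, was 16.74 against GCA replicate 1 and 26.61 against GCA replicate 3. Between GCA replicates 1 and 3 it was 9.14, and within PBS 6.65 to 8.0. The medians differed less, at 1.55 and 1.81 against 1.22. The part that the order of Lcn2 and Saa3 had in the C3 result was not tested.

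**Figure D3:**
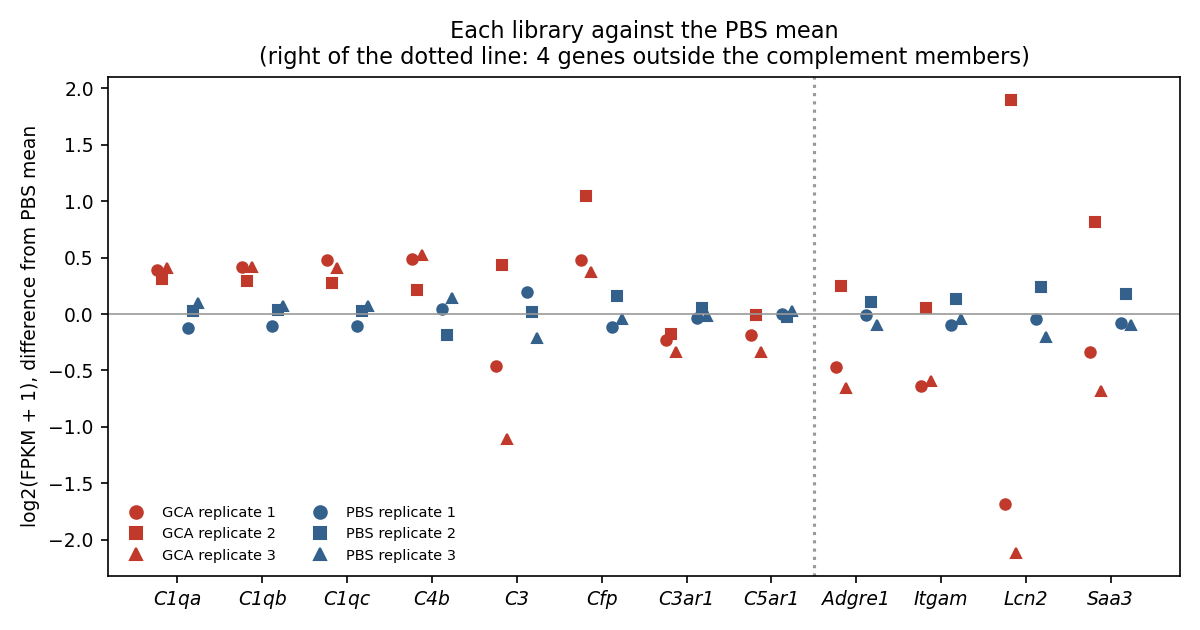
Difference of each library from the PBS mean on the log2(FPKM + 1) scale for the 8 tested complement genes and, right of the dotted line, 4 other genes, with GCA libraries in red and PBS libraries in blue. GCA replicate 2 lies above GCA replicates 1 and 3 for C3, Cfp, C3ar1, C5ar1, Adgre1, Itgam, Lcn2 and Saa3, and below them for C1qa, C1qb, C1qc and C4b.

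Cfp (ENSMUSG00000001128), on chromosome X bases 20925454 to 20931555, minus strand, encodes properdin, which stabilises the alternative pathway convertase. It had 124, 185 and 115 FPKM with GCA, against 81.6, 99.3 and 86.1 FPKM with PBS. The groups did not overlap, yet the SD was 38 FPKM among GCA libraries and 9.2 FPKM among PBS libraries (n = 3 each), and the log2 change of 0.63 (95% interval 0.15 to 1.11) missed the threshold (limma adjusted p = 0.0798). Without GCA replicate 2 it was 0.42 (limma adjusted p = 0.018). Cfb (ENSMUSG00000090231), factor B of the same convertase, at chromosome 17 bases 34856374 to 34862518, was below the tested minimum, with 13, 19 and 17 fragments (0.258, 0.383 and 0.323 FPKM) with GCA and 8, 4 and 16 fragments (0.155, 0.078 and 0.318 FPKM) with PBS. At these counts its groups overlapped. Gm20547, an annotated protein-coding gene on the same strand, overlaps Cfb and is not in the files. How reads shared by overlapping genes were assigned is not given, and whether this lowered the Cfb values was not tested.

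C3ar1 (ENSMUSG00000040552), at chromosome 6 bases 122847138 to 122856161, minus strand, encodes the receptor of the C3a fragment. It had 141, 146 and 130 FPKM with GCA, against 162, 171 and 163 FPKM with PBS. All GCA libraries were below all PBS libraries, and the log2 change was -0.25 (SE 0.055, 95% interval -0.37 to -0.12, limma adjusted p = 0.0185). The call was lost without GCA replicate 1 (limma adjusted p = 0.0522), GCA replicate 3 (0.0534), PBS replicate 2 (0.0733) or PBS replicate 3 (0.0545).

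C5ar1 (ENSMUSG00000049130), at chromosome 7 bases 16246743 to 16259540, minus strand, encodes the receptor of C5a. It had 101.1, 114 and 91.0 FPKM with GCA, against 115, 113 and 117 FPKM with PBS, with GCA replicate 2 inside the PBS range and the others below it. The log2 change was -0.18 (95% interval -0.36 to 0.00, limma adjusted p = 0.158), and without GCA replicate 2 it was -0.26 (limma adjusted p = 0.021). C5ar1 over C3ar1 was 0.717, 0.783 and 0.697 with GCA, against 0.713, 0.659 and 0.720 with PBS (exact permutation p = 0.50, adjusted 0.80). C3ar1 over Csf1r was 0.852, 0.953 and 0.817 with GCA, against 1.05, 1.10 and 1.09 with PBS, whereas C3ar1 over Lyz2 was 0.0159, 0.0151 and 0.0162 with GCA, against 0.0128, 0.012 and 0.0119 with PBS. Of 14 macrophage markers taken in turn, C3ar1 over the marker was below in all GCA libraries for 9, above for 2 and overlapping for 3. Because C3ar1 was itself below in all GCA libraries, this count adds no separate evidence.

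Ordered by mean FPKM in the GCA group, the genes ran C1qa, C1qb, C1qc, Cfp, C3ar1, C5ar1, C3, C4b and Cfb. The ranges of Cfp and C3ar1 overlapped there, as did those of C3 and C4b. In the PBS group the order was C1qa, C1qb, C1qc, C3ar1, C5ar1, Cfp, C3, C4b and Cfb, and only the ranges of C1qa and C1qb overlapped. Cfp was above C5ar1 in all 3 GCA libraries and below it in all 3 PBS libraries. Its mean above that of C3ar1 with GCA rested on GCA replicate 2, and Cfp was below C3ar1 in the other 2 GCA libraries and in all 3 PBS libraries.

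The other genes of the pathway were counted by list. Over 7 lists with 54 genes in the files, the members among them, 27 were tested, of which 6 rose, 4 fell and 17 were not past the threshold. These stand beside 11.5% higher and 6.43% lower over all tested genes. The median log2 change of the 27 was 0.03, against 0.01 over all tested genes. In the classical pathway list 4 of 6 tested genes rose, the 3 C1q chain genes and C4b, and C1s1 fell. Without GCA replicate 2, 13 of the pathway genes passed in place of 10. In the lectin pathway list 1 of 3 tested genes fell. This was Colec12, a collectin and scavenger receptor, which fell to 82.7 ± 3.74 FPKM in GCA libraries, against 125.5 ± 4.3 FPKM in PBS libraries (SD, n = 3 each; log2 change -0.60, limma adjusted p = 0.000448). Masp1, a lectin pathway protease, had 17.9 FPKM with GCA and 19.5 FPKM with PBS (limma adjusted p = 0.212). Fcna, a ficolin of the same pathway, had 14.0, 7.88 and 13.9 FPKM with GCA, against 8.70, 9.02 and 9.72 FPKM with PBS, with a log2 change of 0.31 (limma adjusted p = 0.379) that was 0.56 without GCA replicate 2 (limma adjusted p = 0.00152).

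**Figure D4:**
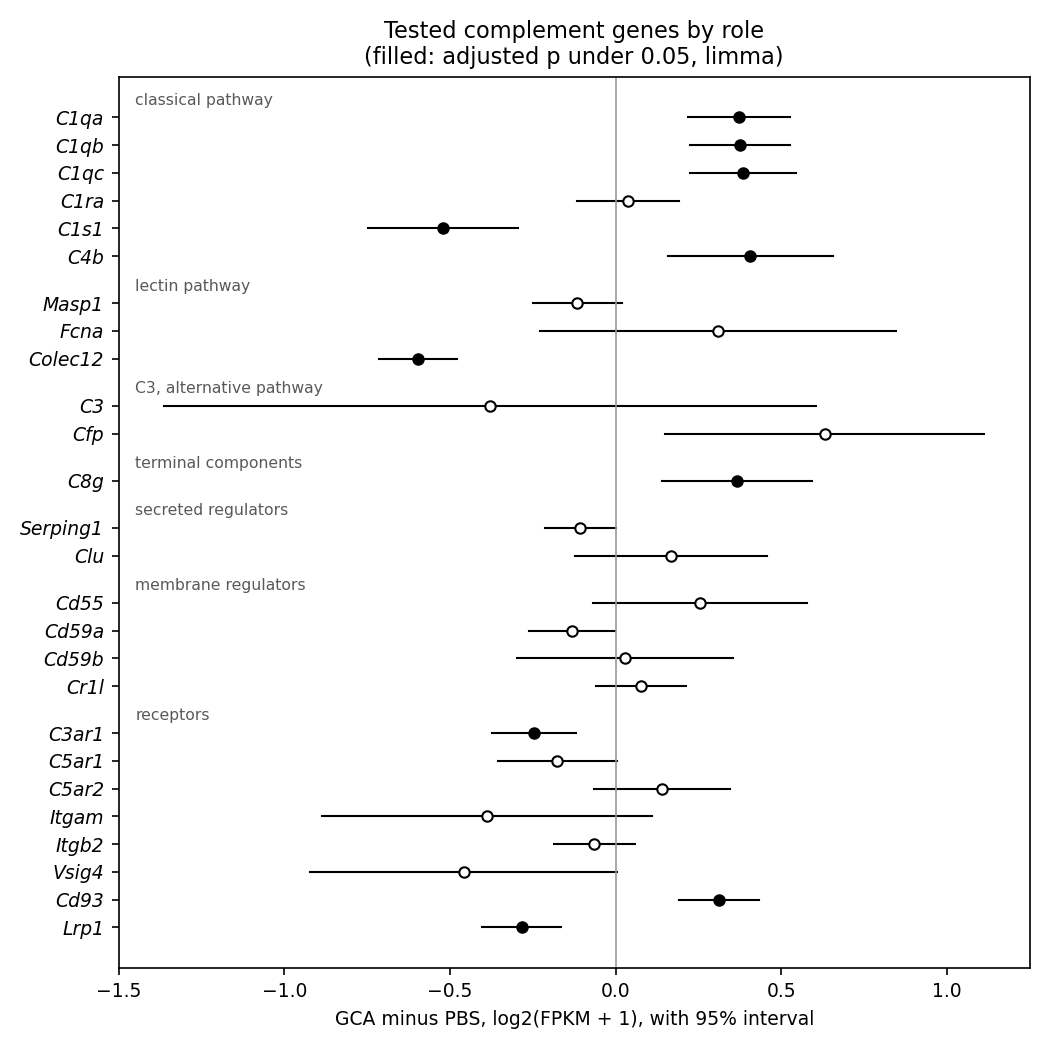
Log2 change, GCA minus PBS, of tested complement pathway genes with 95% intervals from limma, grouped by list, with filled circles for genes past the adjusted threshold of 0.05. Filled circles left of 0 are C1s1, Colec12, C3ar1 and Lrp1, and those right of 0 are C1qa, C1qb, C1qc, C4b, C8g and Cd93.

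Among receptors, 1 of 8 tested genes rose and 2 fell, beside 11.5% higher and 6.43% lower over all tested genes. Cd93, a surface glycoprotein once described as a C1q receptor, rose to 67.3 ± 3.42 FPKM in GCA libraries, against 54 ± 1.74 FPKM in PBS libraries (SD, n = 3 each; limma adjusted p = 0.0063). Lrp1, an endocytic receptor, fell to 101.9 ± 3.54 FPKM in GCA libraries, against 124.3 ± 5.74 FPKM in PBS libraries (SD, n = 3 each; limma adjusted p = 0.00865) and the other that fell was C3ar1. Itgb2, the shared beta chain of complement receptors 3 and 4, had 156.2 FPKM with GCA and 163.2 FPKM with PBS (limma adjusted p = 0.442). Itgam, the CD11b chain, had 24.9, 40.9 and 25.7 FPKM with GCA, against 36.7, 43.1 and 38.1 FPKM with PBS (limma adjusted p = 0.244, and 0.00196 without GCA replicate 2). Vsig4, a macrophage receptor of C3 fragments, had 23 FPKM with GCA and 31.8 FPKM with PBS (limma adjusted p = 0.155). C8g, the gamma chain of C8, rose to 2.15 FPKM with GCA, against 1.43 FPKM with PBS (limma adjusted p = 0.0378), and lost its call in 5 of 6 fits that left out a library. Of the regulators, 0 of 3 tested secreted ones and 0 of 4 tested membrane ones passed. Serping1, the inhibitor of C1r and C1s, had 107.5 FPKM with GCA and 115.9 FPKM with PBS (limma adjusted p = 0.157). Clu, clusterin, had 2.64 FPKM with GCA and 2.22 FPKM with PBS (limma adjusted p = 0.395). Cd55, which speeds decay of the convertases, had 59.9 FPKM with GCA and 49.4 FPKM with PBS (limma adjusted p = 0.244, and 0.0136 without GCA replicate 3). Cd59a, which blocks the membrane attack complex, and Cr1l, called Crry, had limma adjusted p-values of 0.145 and 0.407.

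Transcription factors known to act on complement genes were also counted. Of 13 tested, 3 rose, 0 fell and 10 did not pass, beside 11.5% higher and 6.43% lower over all tested genes. Maf rose to 60.8 ± 3.45 FPKM in GCA libraries, against 45 ± 1.75 FPKM in PBS libraries (SD, n = 3 each; log2 change 0.43, limma adjusted p = 0.00236). Irf8, a myeloid factor of the interferon regulatory family, rose by a log2 change of 0.23 (limma adjusted p = 0.0102). Spi1, which encodes PU.1, had 81.7 FPKM with GCA and 78.9 FPKM with PBS (limma adjusted p = 0.648), and Rela and Klf4 had limma adjusted p-values of 0.711 and 0.485. Of 14 tested cytokines, sensors and feedback genes of the NF-kB and acute phase response, 2 rose and 0 fell: Il1a, at 4.26, 2.83 and 2.45 FPKM with GCA against 0.334, 0.642 and 0.284 FPKM with PBS (limma adjusted p = 0.00132), and Ifngr1, at 65.9 FPKM with GCA and 58.6 FPKM with PBS (limma adjusted p = 0.0487), which lost its call in each of the 6 fits without a library (0.0625 to 0.138). The 2 of 14 that rose are a share near the 11.5% of all tested genes called higher. Saa3, Ccl2 and Nfkbia had limma adjusted p-values of 0.93, 0.445 and 0.654, and Saa3 had 0.0461 without GCA replicate 2.

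Genes most like a complement gene over the 6 libraries were sought among 4625 tested genes of at least 10 FPKM, by the root mean square difference in centred log2(FPKM + 1). C1qa was nearest to Fundc2 (0.028), Arpc3 (0.034) and Tbxas1 (0.039). C1qb, at 0.018, was nearer still, whereas C1qc stood at 0.039. The nearest of 4625 genes over only 6 libraries need share no role with the gene. C4b stood 0.133 from C1qa, and its own nearest were Nenf (0.037), Pdxk (0.069) and Sorbs3 (0.073). C3 was nearest to Hp, haptoglobin, at 0.092, with 230.5, 419.5 and 160.9 FPKM of Hp with GCA against 331.3, 326.0 and 250.4 FPKM with PBS. Next to C3 after Hp were Irak3 (0.22) and Adgre1 (0.221), a macrophage marker. C3ar1 was nearest to Eif1 (0.024), Plekha3 (0.025) and Tmem119 (0.032), with C5ar1 at 0.073.

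**Figure D5:**
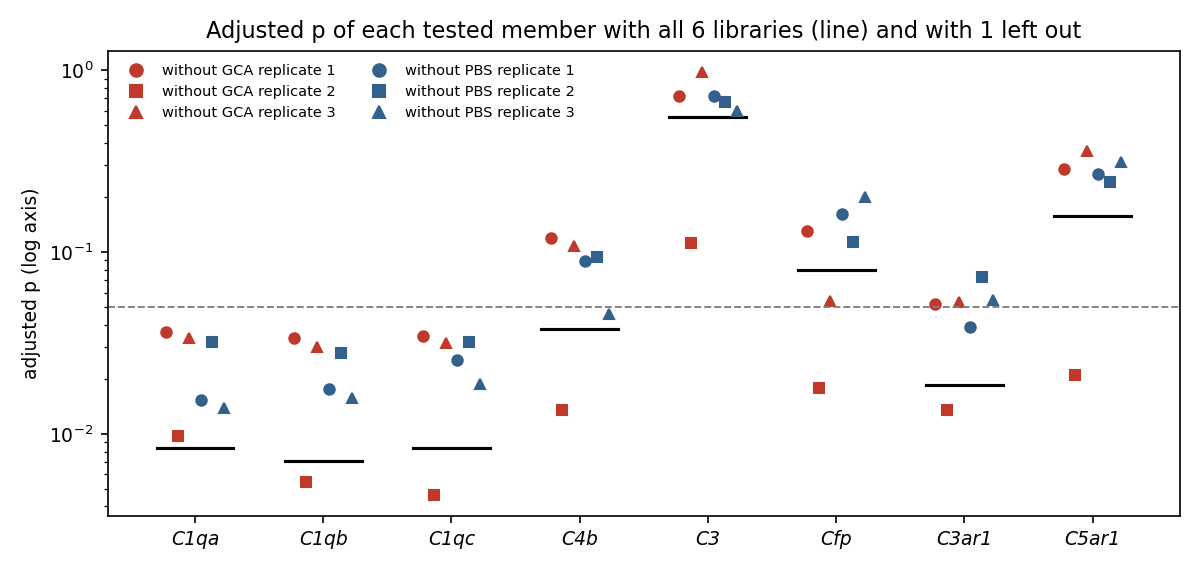
Limma adjusted p on a log axis of each tested complement gene with all 6 libraries (black line) and without each GCA (red) or PBS (blue) library, with a dashed line at 0.05. The C1q chain genes stay under 0.05 in all 6 fits, C4b and C3ar1 cross it in 4 of 6, and Cfp and C5ar1 fall under it without GCA replicate 2.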

How the data were processed

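The 6 libraries, 3 per group, were grouped by their labels. The authors deposited 1 value per Ensembl gene. The unit is not named, and the deposited values were identified as FPKM, read as fragments that the authors divided by gene length and library total, since 91.0% of values above 0 gave whole fragments within 0.02 over exon-union lengths of GENCODE M21 (27204 of 27263 genes matched by identifier). The recovered fragments summed to more than the fitted total in every library, as 19142829 against 17857566 in GCA replicate 1. Per the submitters' processing notes, mm8 and mm9 were the builds and Bowtie 0.12.2 a tool. The counter, its annotation, its filters and its handling of shared reads: not given in the sources used here. Positions come from GENCODE M21 (GRCm38), joined by identifier, and not from the authors' alignment.

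The test was limma-trend with robust moderation (limma 3.58.1, R 4.3.3) on log2(FPKM + 1), for genes averaging 1 FPKM or more, treatment as the only term, two-sided, Benjamini-Hochberg threshold 0.05. The step was tested on simulated data. That simulation gave every gene the same dispersion and held no outlying library, unlike these data. Ratios used exact permutation tests. Python 3.11.15, numpy 2.4.6, pandas 2.3.3, scipy 1.17.1, matplotlib 3.10.9 and blastn 2.17.0 were used. Members and lists were chosen with earlier results of these data known. Named were the members, the pathway and upstream genes past the threshold and up to 3 others per list of highest FPKM; Lcn2, neighbours, near copies and marker genes were named after their values were seen. Alternatives were the replicate block, quantile normalization, median centring, other filters and pseudocounts, other thresholds, each library left out, and limma with neither trend nor robust moderation. Protein-coding genes alone, limma-voom on recovered fragments, transcript length, the macrophage sum without Lyz2 and ratios over each marker were chosen after seeing the data. Some genes that the naming rule takes are left out of the text and figures, and list counts include them.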

Additional observations from a re-analysis of the deposited data

How the results depend on the processing

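Among all genes 2151 passed, 1075 without the filter on low values, 837 at an adjusted p of 0.01 and 1225 to 2078 when a library was left out. Of the complement genes 5 passed, 3 without the filter and 3 to 7 when a library was left out; of the pathway genes 10 passed, 6 without the filter and 7 to 13. C1qb had a log2 change of 0.078 after quantile normalization. C4b kept 0.407 without the filter (limma adjusted p = 0.121) and without trend and robust moderation (0.0506), with 0.315 to 0.503 over left-out libraries. C3ar1 had -0.246 without the filter (limma adjusted p = 0.0625) and -0.282 to -0.200 over left-out libraries. Cfp ranged from 0.422 to 0.762 and C5ar1 from -0.261 to -0.097. C1qa and C1qc kept their direction and call under all 16 alternatives. Cfb gave a value only without the filter, 0.163 (limma adjusted p = 0.482). Directions turned only for genes that did not pass: Rela at -0.012 after quantile normalization, and, over left-out libraries, C1ra at -0.004 to 0.108, Spi1 at -0.016 to 0.091, Saa3 at -0.506 to 0.238 and Nfkbia at -0.200 to 0.046. The cause of these shifts was not tested.

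The labels do not say if same-numbered libraries of the groups were paired, and weak correlations cannot decide it. Deviations of same-numbered libraries correlated at 0.082, 0.029 and 0.068. Each library correlated best with its own number, but PBS replicate 2 correlated nearly as well with GCA replicate 3, at 0.023. With the replicate number as a block, 2094 genes, 6 complement genes and 11 pathway genes passed, and Cfp, at 0.631, was the added member (limma adjusted p = 0.00936). C4b kept its call with the block, with an SE of 0.05 in place of 0.107 (limma adjusted p = 0.00297). The block also gave Ccl2 a call (-0.240, limma adjusted p = 0.0469) and ended that of Ifngr1 (0.0527), and changed no other named gene's call. With 3 libraries per group, small changes of variable genes such as C3 could not be resolved, and near 1 FPKM few fragments limit precision.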
